A study of Mus musculus with 36 samples.

Results

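Of the 3102 peaks called for GFP-tagged ZFP296 in mouse embryonic stem cells (ESCs), 585 overlapped no peak of the NuRD subunits MBD3 and CHD4 or of SIN3A, which is 18.9% of the list. These 585 peaks, here called members, were selected on the absence of a shared base with any peak of 6 ESC lists: MBD3 (replicates 1 and 2), CHD4 (replicates 1 and 2), SIN3A prepared without spike-in chromatin and SIN3A prepared with it. The remaining 2517 ZFP296 peaks overlapped at least 1 of the lists and are called the other ZFP296 peaks. A member is a region where no peak was called in those lists, which is a statement about calls and not about the absence of protein.

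ZFP296 is a zinc finger protein of ESCs, studied here as a partner of NuRD. NuRD joins a chromatin remodeling ATPase (CHD4), histone deacetylases (HDAC1 and HDAC2) and a methyl-CpG binding domain protein (MBD2 or MBD3), and is known for restraining transcription at promoters and enhancers while ESCs choose to self-renew or differentiate. SIN3A is the scaffold of another histone deacetylase complex, best known from CpG-rich promoters. A chromatin immunoprecipitation (ChIP) peak marks DNA recovered with the antibody above an input control, whether the protein touched that DNA itself or through a partner.

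The series holds 36 samples, and peak lists of 9 of them were used: the 7 ESC lists named above and 1 list each of MBD3 and CHD4 in neural progenitor cells (NPCs). MBD3, CHD4 and SIN3A were precipitated from wild-type R1 ESCs and the NPC proteins from progenitors derived from R1 ESCs, kept in NPC medium. All ESCs, the GFP-ZFP296 cells included, grew in serum with LIF and the 2 inhibitors of 2i medium. The label of the ZFP296 sample gives R1 ESCs with a ZFP296 BAC (a bacterial artificial chromosome), whereas the methods describe a GFP-ZFP296 expression construct in KH2 ESCs, and the sources do not settle which line was sequenced. The tagged protein came from an added copy of the gene, and it was precipitated with a GFP antibody from 1 library. The labels of CHD4 replicate 2 give wild-type cells, but its peaks are named after a Zfp219 BAC. Cell line, antibody and library therefore change together between the ZFP296 list and the 6 lists, and their parts cannot be told apart. All intervals below cover counting error only, since the peaks of 1 library are not replicates.

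The members with the highest values included simple repeats, and sequences are shown where the repeat or motif can be read directly. Peak values are the −log10 values that the authors' peak caller gave. All sequences are from mm9, plus strand, 5′ to 3′. The first 4 sequences are the highest members with an uninterrupted run of at least 12 TA dinucleotides, with such runs in capitals.
Fat3 member, chr9:16487916-16488114: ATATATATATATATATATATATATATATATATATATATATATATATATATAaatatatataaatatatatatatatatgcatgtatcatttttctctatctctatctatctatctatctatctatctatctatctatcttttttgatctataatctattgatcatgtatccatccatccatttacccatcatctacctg
2310008H09Rik member, chr7:126037295-126037590: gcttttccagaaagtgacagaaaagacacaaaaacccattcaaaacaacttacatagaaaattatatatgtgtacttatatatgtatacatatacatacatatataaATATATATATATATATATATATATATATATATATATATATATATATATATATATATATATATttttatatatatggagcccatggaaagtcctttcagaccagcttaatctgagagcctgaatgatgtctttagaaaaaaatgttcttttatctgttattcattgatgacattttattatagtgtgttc
Gm4987 member, chrX:43822052-43822338: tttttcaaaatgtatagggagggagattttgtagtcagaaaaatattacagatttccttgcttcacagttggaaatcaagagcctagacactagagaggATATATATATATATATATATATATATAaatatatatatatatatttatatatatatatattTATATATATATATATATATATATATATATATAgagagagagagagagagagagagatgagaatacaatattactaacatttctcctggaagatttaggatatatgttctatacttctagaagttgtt
4921530L21Rik member, chr14:95984159-95984352: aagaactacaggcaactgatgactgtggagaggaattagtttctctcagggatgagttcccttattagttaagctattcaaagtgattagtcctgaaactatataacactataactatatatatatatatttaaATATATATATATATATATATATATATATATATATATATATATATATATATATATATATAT

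In these 4 members the longest alternation of T and A covered 51, 62, 32 and 60 bp, and the GC content of the central 200 bp was from 18.5% to 21.5%. Their values were 29.5, 28.7, 28.3 and 25.8, which places them at ranks 3, 4, 5 and 8 among the 585 members. The Fat3 member lies 305 kb from the nearest protein-coding start. For contrast, 3 of the highest autosomal members with no simple repeat and no exon are shown, with CG dinucleotides in capitals (longer ones, such as that near Elmo1, are left out).
Il31ra member, chr13:113368302-113368595: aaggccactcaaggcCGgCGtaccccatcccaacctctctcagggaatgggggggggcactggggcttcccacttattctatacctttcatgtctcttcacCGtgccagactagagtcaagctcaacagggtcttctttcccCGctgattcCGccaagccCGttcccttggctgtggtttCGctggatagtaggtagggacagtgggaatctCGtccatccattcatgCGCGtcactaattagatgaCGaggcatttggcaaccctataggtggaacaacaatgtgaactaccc
Spen member, chr4:141101761-141102006: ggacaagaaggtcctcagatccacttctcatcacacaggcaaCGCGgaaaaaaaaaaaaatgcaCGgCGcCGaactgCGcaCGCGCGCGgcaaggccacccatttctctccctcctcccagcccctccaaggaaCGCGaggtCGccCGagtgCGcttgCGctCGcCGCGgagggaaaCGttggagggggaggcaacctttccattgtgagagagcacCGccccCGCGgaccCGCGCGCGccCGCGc
Lgsn member, chr1:31186673-31186865: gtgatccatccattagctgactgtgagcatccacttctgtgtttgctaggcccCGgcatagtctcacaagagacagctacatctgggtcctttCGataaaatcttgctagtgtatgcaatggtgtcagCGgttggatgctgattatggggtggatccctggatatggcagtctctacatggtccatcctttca

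The Il31ra member (value 37.4) lies within the gene of an interleukin receptor subunit. The Spen member (value 25.7) is dense in CG dinucleotides, with an observed to expected CpG ratio of 1.07 and a GC content of 63%, and lies 7.37 kb from the start of Spen, a transcriptional corepressor. The Lgsn member (value 22.1) has a CpG ratio of 0.25. The last 5 sequences show members with recognisable motifs, in capitals: the octamer ATGCAAAT bound by POU factors such as POU5F1 (first 2), the half-site AAGGTCA bound by ESRRB and other orphan nuclear receptors (next 2), and, with CG in capitals, the highest member from the end of chromosome X. Where a peak was longer than 200 bp its central 200 bp are given. Other strings searched for below are not marked, such as AAGGTCA on the other strand in the Sec61b sequence and TGAGTCA in the Gm17379 sequence.
Sec61b member, chr4:47737828-47738027: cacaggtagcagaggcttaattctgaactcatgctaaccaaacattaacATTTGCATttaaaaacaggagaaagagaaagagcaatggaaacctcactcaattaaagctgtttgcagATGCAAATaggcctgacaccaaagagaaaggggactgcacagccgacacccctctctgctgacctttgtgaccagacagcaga
Arntl member, chr7:120406665-120406864: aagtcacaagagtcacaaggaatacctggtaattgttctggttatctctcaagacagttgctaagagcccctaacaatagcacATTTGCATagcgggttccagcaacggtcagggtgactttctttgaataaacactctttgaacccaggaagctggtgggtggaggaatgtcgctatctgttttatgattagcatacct
Cops8 member, chr1:92421334-92421533: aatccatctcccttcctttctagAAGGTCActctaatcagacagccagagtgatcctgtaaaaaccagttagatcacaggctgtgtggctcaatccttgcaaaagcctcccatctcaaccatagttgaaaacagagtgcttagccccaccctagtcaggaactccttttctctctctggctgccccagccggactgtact
Fcgr1 member, chr3:96144867-96145066: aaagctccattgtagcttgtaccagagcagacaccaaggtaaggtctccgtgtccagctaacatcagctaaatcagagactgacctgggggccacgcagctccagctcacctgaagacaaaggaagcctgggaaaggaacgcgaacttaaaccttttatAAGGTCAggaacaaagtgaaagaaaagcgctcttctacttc
Gm17379 member, chrX:166422065-166422264: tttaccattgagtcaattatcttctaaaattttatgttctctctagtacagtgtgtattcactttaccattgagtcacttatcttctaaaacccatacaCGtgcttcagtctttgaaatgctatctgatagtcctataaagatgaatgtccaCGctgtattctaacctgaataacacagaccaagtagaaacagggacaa

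The Sec61b member carries the octamer on both strands and has a value of 12.01. Genes are used here only to name the nearest protein-coding start, which for the Sec61b member is 250 kb away.

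How close the members came to the peaks they were required to miss varied by orders of magnitude. The distance to the nearest peak of the 6 lists had a median of 4648 bp and quartiles of 634.5 and 22899.5 bp over the 575 members that lie on a sequence with any list peak. The other 10 members lie on sequences where no list has a peak. The nearest peak was one of CHD4 for 328 members, of SIN3A for 180 and of MBD3 for 67, the order of the total list sizes of CHD4, SIN3A and MBD3. Within 500 bp of a list peak lay 133 members (22.7%), and 54 members (9.23%) were at 100 kb or more.

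At the edge of the rule the classes meet. The closest member, chr16:35484270-35484449 at the Pdia5 gene (value 4.76), touches a list peak without sharing a base. The member at Ssu72 (value 7.23) is 1 bp away. On the other side, ZFP296 peaks at Vamp3 (value 8.72) and Thap11 (value 10.7) share 2 bp with a list peak and one at Pcdhgc5 (value 4.77) shares 4 bp.

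Members near a list peak and members far from one differed in position. Of the members within 500 bp of a list peak, 59.4% lay in the window of a transcription start site (TSS), which here reaches from 1 kb before a protein-coding start to 5 kb past it, against 38.7% between 500 bp and 1 kb, 27.5% between 1 and 10 kb, 22.7% between 10 and 100 kb and 11.5% at 100 kb or more. The intergenic share was 24.8% in the nearest class and 76.9% in the farthest. The median value was 6.95 in the nearest class and 9.72 in the farthest. The members of the nearest class included no tandem telomere repeat and no TA run, while 9 of the 22 such members were at 100 kb or more. These shares describe the members and were not tested, because the distance belongs to the rule.

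**Figure D1:**
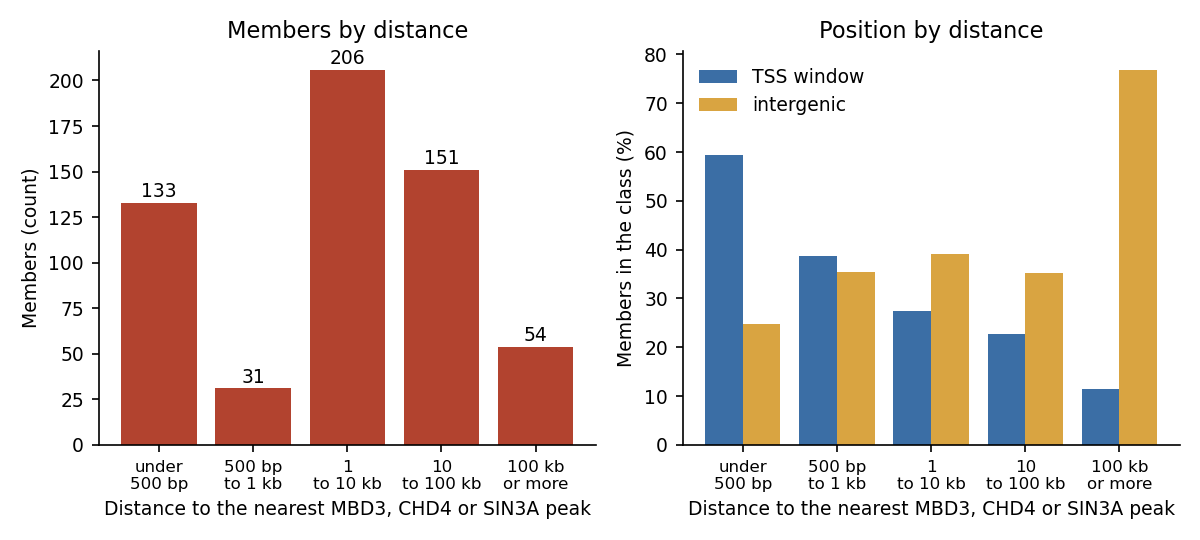
Members by the distance to the nearest MBD3, CHD4 or SIN3A peak. Left, bars give the count of members in each distance class; right, bars give the percentage of members of that class in a TSS window or in intergenic sequence. The TSS share falls from 59.4% in the class nearest to a list peak to 11.5% in the farthest, and the intergenic share is highest (76.9%) in the farthest.

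The number of lists a ZFP296 peak overlapped formed a broad distribution in which the members are 1 end. After the 585 peaks with 0 lists came 527 with 1 list, 609 with 2, 464 with 3, 400 with 4, 315 with 5 and 202 with all 6. The median value of the peaks was 7.53 for members and 7.66, 8.14, 8.48, 9.45, 9.85 and 11.4 for 1 to 6 lists. The median width was 221 bp for members and 294.5 bp for peaks in all 6 lists.

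**Figure D2:**
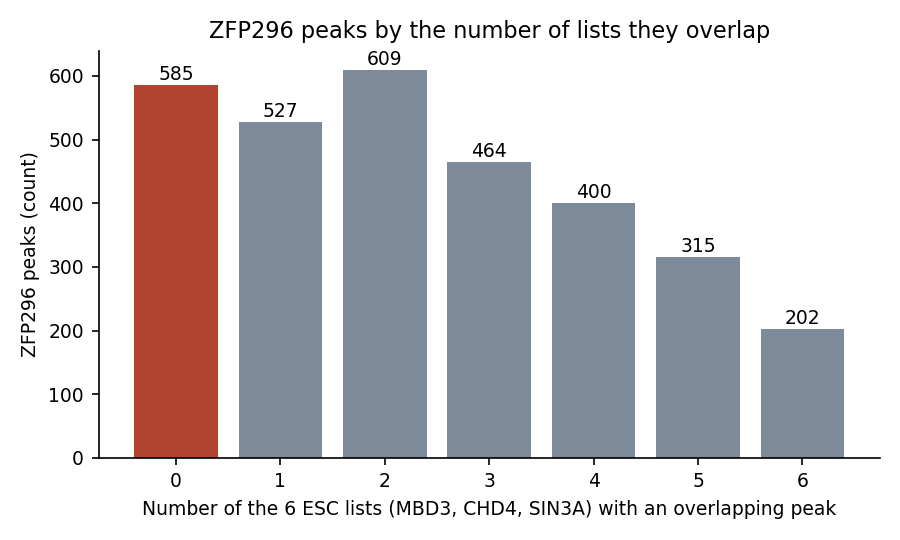
Bars give the number of ZFP296 peaks that overlap peaks of 0 to 6 of the ESC lists of MBD3, CHD4 and SIN3A, with the count above each bar. The members are the 585 peaks at 0, and the highest bar is the 609 peaks at 2 lists.

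Members were on the whole lower peaks, but reached high values. Their values ran from 3.26 to 40.9 with quartiles of 5.65 and 9.85, against 3.11 to 85.8 with quartiles of 6.36 and 11.6 for the other ZFP296 peaks. Of the 297 ZFP296 peaks with a value below 5, 26.6% (95% exact interval 21.7% to 32%) were members. The share was 22.8% for values from 5 to 7.5, 19% up to 10, 14.8% up to 15 and 8.37% (interval 5.04% to 12.9%) from 15 to 20. It was 16.7% (interval 7.92% to 29.3%) from 20 to 25 and 11.2% (interval 5.28% to 20.3%) above that, classes of 54 and 80 peaks. The value was not tested between the classes, because it belongs to the same list that the rule sorted.

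The shares of members in TSS windows, in intergenic DNA and in CpG-rich sequence did not differ detectably from those of the other ZFP296 peaks. On chromosomes 1 to 19, X and Y, which hold 579 members and 2508 other peaks, 187 members had their midpoint in a TSS window (32.3%, interval 28.5% to 36.3%), against 702 other peaks (28%, interval 26.2% to 29.8%) and 28.8% of all ZFP296 peaks. The odds ratio was 1.23 (interval 1 to 1.5), and the two-sided Fisher's exact test gave p = 0.0417, which did not pass after Benjamini-Hochberg adjustment over 5 features (adjusted p = 0.104). Intergenic midpoints made up 39% of members, 43.1% of other peaks and 42.3% of all (odds ratio 0.845, interval 0.699 to 1.02, Fisher's exact test, adjusted p = 0.127). CpG-rich sequence in the central 200 bp, with a GC content of at least 50% and a CpG ratio of at least 0.6, was found in 12.8% of members, 11.2% of other peaks and 11.5% of all (odds ratio 1.16, interval 0.867 to 1.53, Fisher's exact test, adjusted p = 0.39).

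These 3 comparisons turned on how the rule was drawn. With no list peak allowed within 500 bp, the 452 members left had a TSS odds ratio of 0.761 (Fisher's exact test, adjusted p = 0.0513), since the 133 members removed are those of which 59.4% lay in a TSS window. Without the SIN3A list made without spike-in, the members numbered 698 and all 3 passed in Fisher's exact test, with odds ratios of 1.92 for TSS windows (adjusted p = 6.34e-12), 0.681 for intergenic midpoints (adjusted p = 2.98e-05) and 1.98 for CpG-rich sequence (adjusted p = 1.21e-07). Without the SIN3A list made with spike-in, TSS windows (odds ratio 1.31, Fisher's exact test, adjusted p = 0.026) and CpG-rich sequence (1.36, adjusted p = 0.038) passed. The CpG-rich odds ratio was under 1 without MBD3 replicate 2 (0.952) and without CHD4 replicate 2 (0.931), and the intergenic one was 1.03 without CHD4 replicate 2, none of which passed. Of the ZFP296 peaks with a SIN3A peak and no NuRD peak, 78.8% lay in a TSS window, against 14.1% of those with a NuRD peak and no SIN3A peak. Of the SIN3A list peaks themselves, 79.3% (without spike-in) and 83.5% (with spike-in) lay in one. Leaving out a SIN3A list therefore moves ZFP296 peaks of this kind into the members. The tests above cannot set that part of the rule aside.

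In these measures members lay between the ZFP296 peaks with list peaks of either complex alone. The 1175 ZFP296 peaks with NuRD list peaks and no SIN3A list peak were 52.9% intergenic and 2.99% CpG-rich. The 233 with SIN3A list peaks and no NuRD list peak were 15.6% intergenic and 52.4% CpG-rich. The 1109 with list peaks of both complexes were 38.5% intergenic, 11.4% CpG-rich and 32.1% in a TSS window, close to the members' 39%, 12.8% and 32.3%. No test was made among the 4 classes.

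Distances to the start were described after the values were seen and were not tested. A midpoint within 250 bp of a start was found for 38 members (6.56%) and 282 other peaks (11.2%). At the far end, 62 members (10.7%) and 175 other peaks (6.98%) had no protein-coding start within 100 kb. Midpoints in exons outside TSS windows made up 5.53% of members (32 of 579, interval 3.81% to 7.71%) and 1.99% of other peaks (50 of 2508, interval 1.48% to 2.62%), a contrast that was also noticed in the data and not tested. The exonic member with the highest value is at Celsr3 (13.1), which encodes an atypical cadherin, and the next are at Ormdl3 (12.5), a regulator of sphingolipid synthesis, and Zfp536 (12.5), a zinc finger gene. Those that follow lay nearest to the starts of Slc26a6 (10.8), Sall3 (10.7), Gm17379 (10.4), C77080 (10.1) and Dupd1 (9.60). Of the 579 members, 95 had another ZFP296 peak that is not a member within 10 kb, a count that was not made for the other peaks.

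The highest members in TSS windows lay nearest to the starts of genes of unrelated function. After Il31ra (37.4) and Flt1 (27.0) followed a peak near Gm17379 inside Mid1 on chromosome X (value 21.4), Zfp128 (19.5, at 62 bp from its start), a second peak near Gm17379 (18.7), and Ube2a (18.5), a ubiquitin-conjugating enzyme. Then came a member 1.82 kb before the start of 9330160F10Rik (18.5), outside the window of that start and inside that of another. Next were Slc6a4 (17.96, at 2 bp from the start), the serotonin transporter, and Mmachc (17.4, at 39 bp), which handles vitamin B12. The Zfp128, Slc6a4 and Mmachc members lie on the start itself and have CpG ratios of 0.656, 1.12 and 0.751, whereas the Ube2a member lies 4.45 kb away in sequence with a GC content of 7%. The nearest list peak to the Slc6a4 member was 52.6 kb away, to the Zfp128 member 12.9 kb and to the Mmachc member 4.08 kb.

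Of the 20 members with the highest values, 4 lay in a TSS window, 5 contained a TA run, 3 contained tandem telomere repeats and 1 was at the end of chromosome X. The highest of all, 40.9 over 672 bp, is on the unplaced contig 9_random, where the sequence was not used here. Other members among the 20 without simple repeats lay near Elmo1 (23.8), an activator of RAC signalling, Mex3c (22.3), an RNA-binding protein, Gm5146 (21.3), Olfr161 (20.9), U2af1 (20.9), a splicing factor, and Vmn2r102 (19.7), a pheromone receptor. The distance of the Vmn2r102 member to any list peak was 1120 kb.

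At least 2 tandem copies of the telomere repeat unit were found in 11 members (1.9%, interval 0.952% to 3.37%) and in 1 other ZFP296 peak (0.0399%), which makes 0.389% of all ZFP296 peaks. This contrast, like those that follow for TA runs and chromosomes X and Y, was noticed in the data and was not tested. The values of the 11 members ran from 13.0 to 27.0 with a median of 15.2. By contrast, the single unit TTAGGG was as frequent in members as in other peaks: 58 of 579 members (10%) and 262 of 2508 other peaks (10.4%) had it in the central 200 bp, with an odds ratio of 0.954 (interval 0.694 to 1.29, Fisher's exact test, adjusted p = 0.985 over 12 strings). The windows 10 kb downstream of members held it in 8.15%.

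The highest of them lay in the gene body of Flt1 (value 27.0), a receptor of vascular endothelial growth factors, at 3.75 kb from the nearest start site, and near Ankle1 (27.0). Those next in value lay near Tcerg1l (20.9), in an intron of Phactr2 (18.5), in introns of Frmd4a (16.3) and Ttc21b (15.2) and within Phf21a (14.1, at 554 bp from a start). The last were near 1700008P02Rik, 4931417E11Rik, Sh3bgrl2 and Cdh12, each with a value of 13.0. Distances of the 11 to the nearest list peak were from 10.4 kb (Sh3bgrl2) to 290 kb (Cdh12). None of the 11 overlapped an NPC peak of MBD3 or CHD4. Of all members only 0.518% and 3.97% did, so 11 are too few to show a difference. The 1 other ZFP296 peak of the kind, in an intron of Lama1 had a value of 57.3, above all members, and overlapped a SIN3A peak.

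TA runs were found in 11 members (1.9%, interval 0.952% to 3.37%) and in 0 of 2508 other ZFP296 peaks (exact interval up to 0.147%), which makes 0.356% of all ZFP296 peaks. Their values ran from 9.85 to 29.5 with a median of 17.4. In addition to those shown, they lay near Gm3675 (23.3), Il6st (17.4), Ptprd (17.4, in an intron), Ero1lb (15.2), Pdgfd (15.2), Tbc1d2b (12.01) and Otol1 (9.85). None lay in a TSS window. A GC content under 30% in the central 200 bp was found in 16 members and in 0 other ZFP296 peaks. All 11 members with a TA run are among those 16. Counting perfect tandem repeats of at least 24 bp and of any unit up to 6 bp, 22 members (3.8%) and 7 other peaks (0.279%) had one. Leaving out these members, those with tandem TTAGGG and all peaks of chromosomes X and Y left 527 members, and the TSS odds ratio was then 1.29 (Fisher's exact test, adjusted p = 0.0251) and the intergenic odds ratio 0.775 (adjusted p = 0.0251), so both passed, while that for CpG-rich sequence did not (odds ratio 1.19, adjusted p = 0.288).

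**Figure D3:**
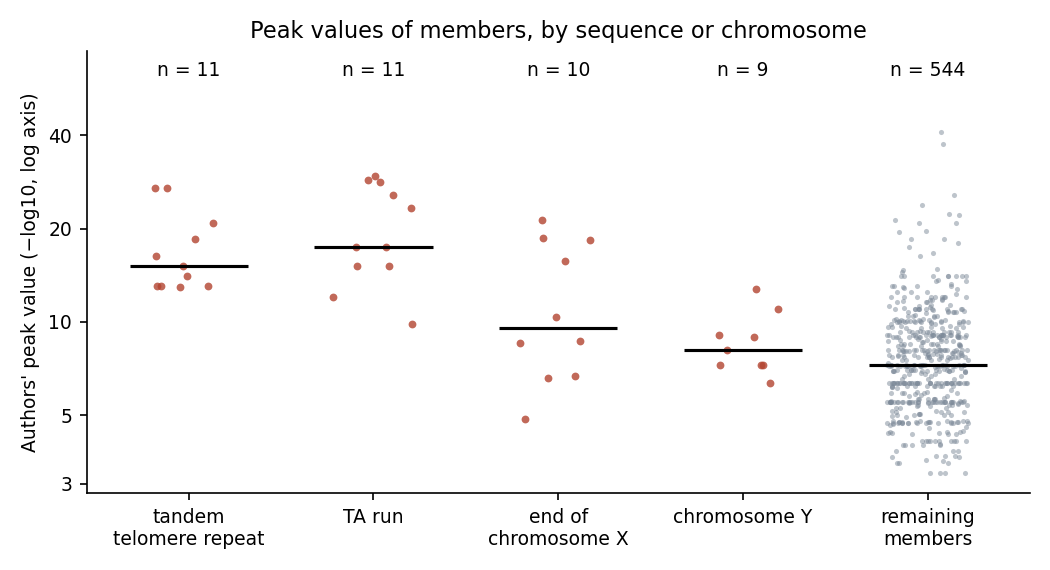
Each point is 1 member, with the authors' −log10 peak value on a log axis, grouped by tandem telomere repeats (11), TA runs (11), the end of chromosome X (10), chromosome Y (9) and the remaining members (544); black lines are medians. The telomere and TA groups have medians of 15.2 and 17.4, against 7.23 for the remaining members, whose highest point is 40.9.

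A large part of the ZFP296 peaks on the sex chromosomes were members, which on chromosome Y the rule fixed in advance. All 9 ZFP296 peaks of chromosome Y had to be members, because the 6 lists have no peak there. Of the 29 on chromosome X, 21 were members (72.4%, interval 52.8% to 87.3%). On the autosomes the share was from 9.09% (chromosome 8) to 27.7% (chromosome 13). None of the 6 ESC lists and neither NPC list had a peak on chromosome Y, while chromosome X held from 17 to 162 peaks of the ESC lists of MBD3, CHD4 and SIN3A. The 9 members of chromosome Y fell in 2 clusters of 3 and 6 peaks spanning 8.94 and 8.62 kb, with values from 6.36 to 12.7. Of the 21 on chromosome X, 10 lay in 21.1 kb at its end (chrX:166418198-166439331), in and around Mid1, with values from 4.86 to 21.4. Mid1 encodes a ubiquitin ligase of microtubules and is known to span the boundary of the pseudoautosomal region in laboratory mice. The widths of these 10 had a median of 416.5 bp. Only uniquely mapped reads were kept by the authors, and whether this region has near-identical copies elsewhere was not tested.

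With steps of at most 20 kb, 6 clusters of 3 or more members held 29 of them. No such count was made for the other ZFP296 peaks, so this does not show that members cluster more than ZFP296 peaks in general. Besides those on X and Y, they were 2 on chromosome 13, with 3 members near Vmn1r223 (values 4.12 to 8.94) and 4 near Abt1 and Btn1a1 (5.89 to 11), and 1 on chromosome 19, with 3 members near Osbp and Olfr1423 (6.21 to 7.71). The B box of tRNA genes, GTTCGANTC on either strand, was in the central 200 bp of 6 members (1.04%) and 11 other peaks (0.439%), among them members near Aurkb, Hes7 and Btn1a1. It was found in 174 of the 11712 peaks of CHD4 replicate 1 and in 228 of the 29974 of replicate 2.

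The same repeats were counted in all 9 lists. Tandem telomere repeats were present in 12 ZFP296 peaks (3.87 per 1000) and in 0 peaks of the ESC MBD3 lists. The ESC CHD4 lists held 5 and 6 (0.427 and 0.2 per 1000) and the SIN3A lists 4 and 1 (0.247 and 0.0876 per 1000). The lists hold from 2304 to 29974 peaks. For CHD4 and SIN3A the rates therefore lie further below those of ZFP296 than the counts do. TA runs were present in 11 ZFP296 peaks (3.55 per 1000), in 2 of the 29974 peaks of CHD4 replicate 2, in 1 NPC CHD4 peak, and in no peak of the other 6 lists. Members were selected against the ESC lists of MBD3, CHD4 and SIN3A. With so few repeat peaks in those lists, the split of repeat peaks between members and other ZFP296 peaks follows in part from the rule. The ZFP296 library was the only one made with the GFP antibody and the tagged line, and whether these repeats would be recovered with GFP antibody from untagged cells was not tested. The input used as its control was not analysed here.

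**Figure D4:**
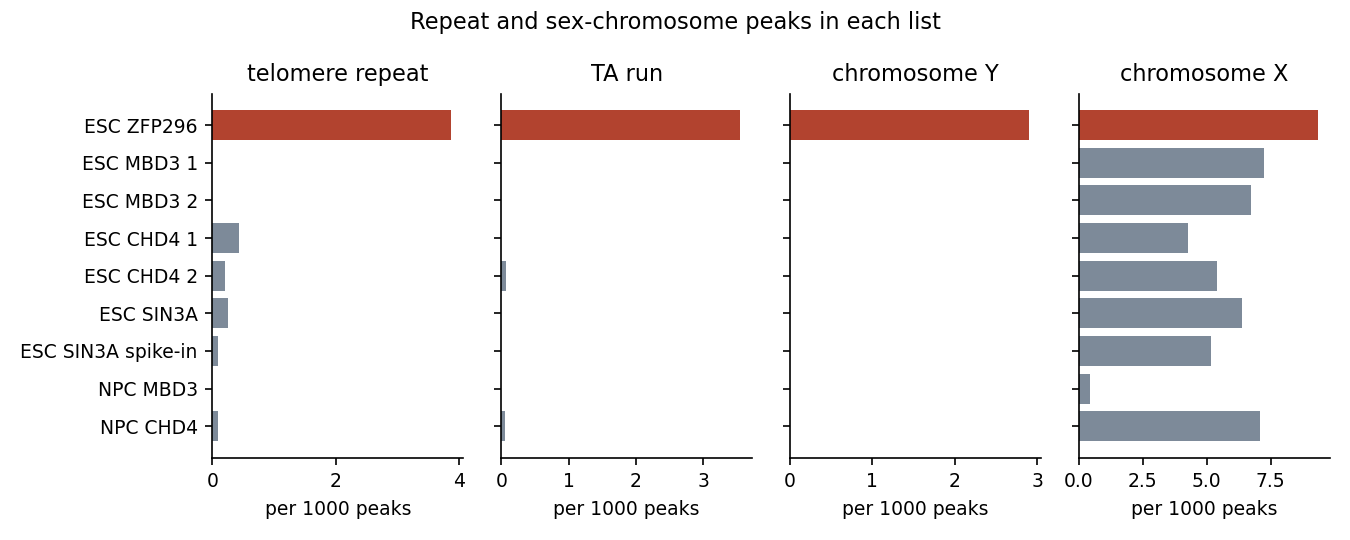
Peaks per 1000 peaks of each list that contain tandem telomere repeats, contain a TA run, or lie on chromosome Y or X, with the ZFP296 list in red and the 8 other lists in grey. The ZFP296 list has 3.87, 3.55, 2.9 and 9.35 per 1000, and it is the only list with chromosome Y peaks. The lists hold from 2304 to 29974 peaks, by which the counts were divided.

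Of 12 strings looked for in the central 200 bp, on either strand, among them motifs of ESC transcription factors, 4 were less frequent in members at an adjusted p under 0.05, and 8 did not differ detectably. AAGGTCA, the ESRRB half-site, was in 54 members (9.33%, interval 7.08% to 12%) and 368 other peaks (14.7%, interval 13.3% to 16.1%), and in 13.7% of all, with an odds ratio of 0.598 (interval 0.434 to 0.812, adjusted p = 0.00717 by a Fisher's exact test, two-sided). GGGTGTGG, a core bound by KLF factors, was in 22 members (3.8%) and 179 other peaks (7.14%), and in 6.51% of all (odds ratio 0.514, interval 0.311 to 0.812, Fisher's exact test, adjusted p = 0.016). CCGGAAGT, bound by ETS factors, was in 1 member (0.173%) and 38 other peaks (1.52%), and in 1.26% of all (odds ratio 0.112, interval 0.00277 to 0.669, Fisher's exact test, adjusted p = 0.0237). The CCGGAAGT call rests on 1 member and was lost without CHD4 replicate 2 (odds ratio 0.501, Fisher's exact test, adjusted p = 0.32), without SIN3A made without spike-in (0.394, adjusted p = 0.241), without SIN3A made with spike-in (0.22, adjusted p = 0.069) and in the central 500 bp (0.728, adjusted p = 0.444). The octamer ATGCAAAT was in 16 members (2.76%) and 128 other peaks (5.1%), and in 4.66% of all (odds ratio 0.529, interval 0.291 to 0.901, Fisher's exact test, adjusted p = 0.0472).

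Over 15 alternative settings all 4 odds ratios stayed below 1, and AAGGTCA passed in 13, GGGTGTGG in 11, ATGCAAAT in 6 and CCGGAAGT in 5. Beside these shares stand those of neighbouring DNA. The octamer was in 1.04% of the windows 10 kb downstream of members, the half-site in 4.85% and the KLF core in 2.08%, each below its share in members, whereas CCGGAAGT was in 0.52% of those windows, above its 0.173% of members. No test was made against the downstream windows. By the number of lists overlapped, the half-site was in 9.33% of members and in 12.3%, 11.8%, 15.4%, 14.8%, 20.6% and 18.4% of the peaks in 1 to 6 lists. The octamer was in 8.96% of the peaks in all 6 lists. By complex, the half-site was in 15.7% of ZFP296 peaks with list peaks of NuRD alone, 15.6% with both and 4.76% with SIN3A alone. In the same order the KLF core was in 7.34%, 8.05% and 1.73%, and the octamer in 5.47%, 5.7% and 0.433%. For these 3 strings members were above the peaks with SIN3A alone. CCGGAAGT was in 0.683%, 1.9% and 3.9%, each above the members. These classes were not tested. Among peaks of the middle tertile of the value, the same 4 odds ratios were 0.484, 0.472, 0 and 0.44, but 0 strings passed (Fisher's exact test, adjusted p from 0.063 to 0.17) and 2 had an unadjusted p under 0.05. Outside TSS windows 0 passed as well and 3 had an unadjusted p under 0.05, with odds ratios of 0.614, 0.535, 0 and 0.533 (adjusted p from 0.0538 to 0.422). Without tandem repeats and chromosomes X and Y, 3 strings passed, and the octamer did not (odds ratio 0.546, Fisher's exact test, adjusted p = 0.0918).

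The other 8 strings did not differ detectably. The SOX string CCATTGT was in 6.91% of members and 6.18% of other peaks (odds ratio 1.13, interval 0.765 to 1.63), above the 2.6% of the windows 10 kb downstream of members. The GC box GGGCGG was in 9.5% and 12.1% (odds ratio 0.761, interval 0.552 to 1.03, Fisher's exact test, adjusted p = 0.202). The AP-1 strings TGACTCA and TGAGTCA were in 3.45% and 3.79%, and the E-box CACGTG in 4.15% and 4.23%, each within 1 percentage point of the downstream windows. The CTCF core was in 4 members, GCGCATGC of NRF1 in 1 and AAGATGGC of YY1 in 5, counts too low for any but a large difference to be detectable.

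**Figure D5:**
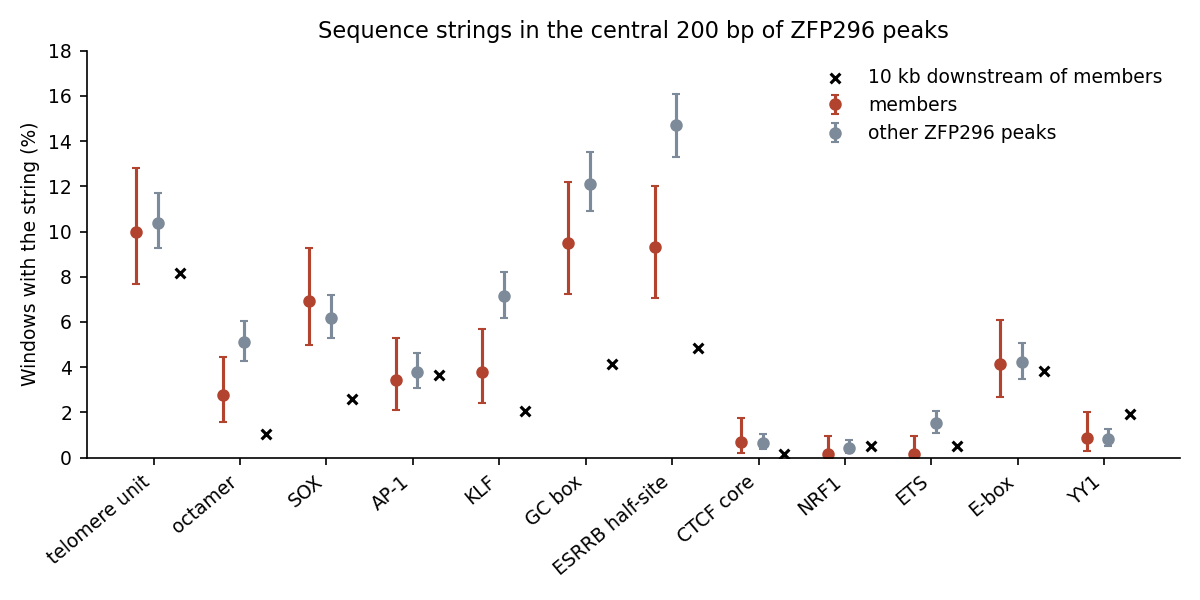
Percentage of central 200 bp windows that contain each of 12 strings, in members (red) and other ZFP296 peaks (grey) with 95% exact intervals, and in windows 10 kb downstream of members (black crosses). The ESRRB half-site is at 9.33% in members and 14.7% in other peaks, the KLF core at 3.8% and 7.14%, and the octamer at 2.76% and 5.1%, with members above the downstream windows in these 3; the ETS string is at 0.173% in members, 1.52% in other peaks and 0.52% in the downstream windows.

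Of the 16 members with the octamer, 12 lay outside TSS windows. Of all 579 members 187 (32.3%) lay inside one, and 16 are too few to show a difference from that share. After the Sec61b (12.01) and Arntl (11.3) members came those at Mdga1 (10.03), Tmem132c (9.08), Anp32a (8.94) and Gpr37l1 (8.67). Arntl encodes the clock factor BMAL1, and the member in its intron is 0.264 kb from a CHD4 peak. By contrast, the nearest list peak to the Tmem132c member was 473 kb away.

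The NPC lists were not used by the rule, and CHD4 was precipitated with the same antibody in both cell types. The rule did remove every ZFP296 peak with an ESC CHD4 or MBD3 peak, sites also called in NPCs included. A lower NPC share in members can therefore follow from the rule, and the tests below cannot set that part aside. An NPC CHD4 peak overlapped 23 members (3.97%, interval 2.53% to 5.9%) and 182 other ZFP296 peaks (7.26%, interval 6.27% to 8.34%), against 6.64% of all ZFP296 peaks. The odds ratio was 0.529 (interval 0.324 to 0.828, adjusted p = 0.0196 by a Fisher's exact test, two-sided). Dropping CHD4 replicate 1 from the rule gave an odds ratio of 0.64 (Fisher's exact test, adjusted p = 0.15) and dropping CHD4 replicate 2 gave 0.791 (adjusted p = 0.475), so that the call was lost without either of these lists. The 23 members share a base with a CHD4 peak of progenitors and with none of ESCs. The highest were at 9330160F10Rik (18.5), Plin2 (14.8), a lipid droplet coat protein, Fcgr3 (10.03), an immunoglobulin receptor, Tnk2 (9.08), a non-receptor tyrosine kinase, and Romo1 (8.80), a mitochondrial membrane protein. Several lie close to an ESC list peak, that at Romo1 0.127 kb and that at 9330160F10Rik 0.253 kb away. Whether the NPC CHD4 peaks at these members themselves overlap an ESC CHD4 peak was not tested.

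NPC MBD3 peaks overlapped 3 members (0.518%) and 22 other peaks (0.877%), against 0.81% of all (odds ratio 0.589, interval 0.112 to 1.97, Fisher's exact test, adjusted p = 0.605). These 3 members were at 2900073G15Rik (9.54), Rdm1 (5.52) and Lclat1 (5.52).

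Of 19 core and naive pluripotency genes in the annotation, 15 had a ZFP296 peak of any class within 100 kb of a start (78.9%), but 1 had a member (5.26%), against 30.6% and 8.64% of all 22225 protein-coding genes. Pou5f1 had 5 other ZFP296 peaks, Esrrb 6, Klf4 4 and Zfp296 itself 4, and none of these genes had a member. The 1 gene with a member was Sall4, a zinc finger factor of the pluripotency network, with a member of value 6.36 at 0.253 kb from its start (chr2:168581479-168581913) and no other ZFP296 peak. The lists were compared by counts alone, and no test was made.

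Among 19 primed and early lineage genes, 4 had a member within 100 kb (21.1%) and 8 any ZFP296 peak (42.1%). Of all protein-coding genes 8.64% had a member and 30.6% any ZFP296 peak. The 4 genes were Dnmt3a (53.3 kb, value 5.89) and Dnmt3b (51.7 kb, 6.35), the de novo DNA methyltransferases, Zic2 (25.3 kb, 7.19), a neural and epiblast zinc finger factor, and Gata4 (70.9 kb, 8.05), an endoderm factor. For Dnmt3a and Gata4 the member was the only ZFP296 peak in that range, and for Dnmt3a it lies in an exon of the neighbouring gene Pomc.

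Among 19 signalling genes, 5 had a member (26.3%) and 16 any ZFP296 peak (84.2%), against 8.64% and 30.6% of all protein-coding genes. As both shares exceed those of all genes, the higher share is not particular to members. Members lay 5.92 kb from Id1 (value 5.12) and 73.6 kb from Id2 (10.03), targets of BMP signalling, 8.03 kb into Fgfr2 (6.21), a receptor of fibroblast growth factors, 27.1 kb from Axin2 (7.52), a Wnt target, and 90.5 kb from Wnt3 (11.3). The members at Id1 and Fgfr2 were 0.372 kb and 0.06 kb from a list peak, whereas those at Id2 and Wnt3 were 44.6 kb and 23.3 kb away. Lefty1, Lefty2, Nodal, Fgf4, Spry2 and Smad7 had other ZFP296 peaks and no member.

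Of all protein-coding genes 8.64% had a member and 30.6% any ZFP296 peak. Of 14 telomere and 2-cell stage genes, 0 had a member and 2 had another ZFP296 peak (Tinf2 and Daxx, 14.3%). Of 20 genes for NuRD and SIN3A subunits, 1 had a member (5%) and 7 any ZFP296 peak (35%), near the shares of all genes. The gene was Hdac1, with 3 members of values 7.19, 6.36 and 4.36 at 77.1, 2.15 and 26.5 kb from its start and no other ZFP296 peak. The nearest starts to these 3 were those of Zbtb8b, Marcksl1 and Tssk3.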

How the data were processed

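The authors mapped reads to mm9 with BWA, kept uniquely mapped reads of sufficient quality without duplicates and called peaks per sample with MACS2 2.0 with an input of the matching cell line as control. The deposited BED lists give each peak a −log10 value (of a p-value or a q-value, which is not stated), used here to rank, describe or filter peaks within a list. Peak names of 7 lists give 17000000 reads, those of both SIN3A lists do not, and the threshold was 0.001 (0.0001 for SIN3A without spike-in). Read counts per peak were not used here, so depth beyond this is unknown.

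Members were defined by overlap of 1 bp. Peaks of chromosomes 1 to 19, X and Y were placed by their midpoint, with all starts of protein-coding genes of GENCODE vM1. Feature counts of members and other peaks were set against each other in Fisher's exact tests (two-sided), adjusted by the Benjamini-Hochberg method over 5 features and, apart, 12 strings. Shares have 95% exact (Clopper-Pearson) intervals. A planned test of repeat-masked sequence was void, because the reference is not soft-masked. Described regions were the 20 highest members, the 10 highest in TSS windows, those within 100 kb of listed genes, those with tandem TTAGGG and 3 on each side of the rule, of which 1 is not reported here. The members, lists, strings and tests were chosen with earlier results of these data known. TA runs, sex chromosomes, exons, other tandem repeats, clusters, the B box and distances to starts were described after their values were seen. The code was tested on simulated peaks. Tools were samtools 1.23.1, pyfaidx 0.9.0.4 and scipy 1.17.1, with matplotlib 3.10.9 and numpy 2.4.6 under Python 3.11.15.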

Additional observations from a re-analysis of the deposited data

How the results depend on the processing

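No paired analysis was possible because the comparisons are counts of peaks of 1 ZFP296 library, with no fit over replicates. Dropping 1 of the 6 lists from the rule gave from 589 to 824 members, odds ratios of 1 to 1.92 for TSS windows, 0.681 to 1.03 for intergenic sequence, 0.931 to 1.98 for CpG-rich sequence, 0.448 to 0.791 for NPC CHD4 and 0.376 to 0.997 for NPC MBD3, and 2 to 4 strings. The SIN3A list without spike-in and CHD4 replicate 2 gave most of these extremes. Requiring list peaks to be found in both lists of a factor gave 1557 members, 2 strings and an NPC CHD4 odds ratio of 0.753, which no longer passed. Counting an overlap only when it covered at least 50% of the ZFP296 peak gave 1.31 for TSS windows, which then passed, and 0.812 for NPC CHD4, which did not. Excluding list peaks within 500 bp turned the direction for TSS windows (0.761), intergenic (1.05) and CpG-rich sequence (0.963), none of which passed, and left 1 string. A ZFP296 value of at least 5 left 2 strings. The middle tertile of the value left 0 strings and an NPC CHD4 odds ratio of 0.543 that did not pass. Outside TSS windows 0 strings remained, CpG-rich sequence passed (2.02) and NPC CHD4 did not (0.577). The central 500 bp gave 2 strings. Without tandem repeats and chromosomes X and Y, an alternative chosen after seeing the data, TSS windows (1.29) and intergenic sequence (0.775) passed. The cause of these changes was not tested beyond what each rule removes. AAGGTCA was below 1 in all 15 alternatives and passed in 13. The repeat-masked share was not run.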
